A study of Mus musculus with 19 samples.

Results

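MicroRNA precursors are the hairpin-bearing transcripts from which short regulatory RNAs are cut, and 135 distinct expression profiles on the arrays carried the symbol of at least 1 of them. They were found by symbol in the platform annotation: every probe set with a symbol that starts with Mir or Mirlet and a number was kept, also where the same probe set named other genes, and host transcripts (hg) and opposite-strand transcripts (os) were not counted as microRNAs. The probe set of Mir219a-2 was left out. This gave 165 of 8751 probe sets. Of these, 40 probe sets shared their values in 10 groups of identical copies, so that 135 profiles of the 8405 distinct ones on the arrays remained. The 135 profiles named 167 microRNA genes.

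Forebrain RNA came from EphA4 knockout mice and littermates of a mixed BL6/10 strain. EphA4 is a receptor tyrosine kinase that binds ephrins and is known from axon guidance and synapses. The light was on for 12 h a day, and the mice were either left undisturbed or deprived of sleep for 6 h. The 19 arrays fell into 4 wild-type control arrays, 6 arrays of sleep-deprived wild-type mice, 4 knockout control arrays and 5 arrays of sleep-deprived knockout mice. The labels give neither the allele nor the age of the animals, and they do not state that each array came from its own animal, so the p-values measure the spread between these arrays. A probe set named Epha4 was not among the values used here, so the knockout itself was not checked. Of 46 marker genes of forebrain and of other cell types, 2 had a probe set, both of them globins, and none of the 12 forebrain markers did, so the labelled tissue was not checked against its markers. Array medians ran from 5.90 to 6.07 on the log2 scale of the deposited values. Precision is limited by the number of arrays.

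Most microRNAs begin as a long primary transcript made by RNA polymerase II, either from a gene of their own or inside an intron or exon of another gene. The nuclear enzyme Drosha with its partner Dgcr8 cuts out the hairpin, and Dicer in the cytoplasm cuts the hairpin to the mature strand, which an Argonaute protein then carries to messenger RNAs. Bases 2 to 8 of the mature strand, the seed, pair with the target, so microRNAs with the same seed share many predicted targets. Probe sets of this kind of array, hybridised with labelled total RNA, read the hairpin and the transcript around it rather than the mature strand, and no value here is a level of a mature microRNA. This limit is plainest for the 83 profiles whose probe set also named another gene. In 70 of them a microRNA lay within the span of that other gene, and on the same strand in 53 of the 55 whose strands were known. For the probe set of Mir433 and Mir127 this rests on 6430411K18Rik alone, as the strand of Rtl1, which it also names, was not known. The other 52 profiles named microRNAs alone, and 43 profiles named exactly 1 gene. Many of these 52 also lay inside a gene that the probe set does not name, such as Mir140 in Wwp2 and Mir331 in Vezt. The hairpin and the transcript around it cannot be told apart there either.

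Mature sequences were taken from RefSeq (GRCm38.p6), where 137 of the 167 microRNA genes had one that is used here. The sequences below are written 5′ to 3′ with the seed in capitals. Of the members that passed in a comparison, Mir704 and Mir3101 are shown, and Mir684 and Mir466b-2 are given by name only. Mir376a, Mir1191 and Mir703 passed in none and are shown because their values are described in detail. Mir704 lies inside Pdia4 (chr6:47803590-47803610, minus strand, for the mature strand), Mir3101 inside Rab4b (chr7:27176058-27176078, minus strand, for its 5p strand) and Mir376a in the imprinted cluster of chromosome 12 (chr12:109723824-109723844, plus strand, for its 3p strand). Mir1191 lies inside BC024978 and Mir703 inside Cfap299.
miR-704: aGACAUGUgcucugcuccuag
miR-3101-5p: gGUACCAUugacuaaagcuag
miR-3101-3p: uAGCUUUGguggauggucuuu
miR-376a-5p: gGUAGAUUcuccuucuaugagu
miR-376a-3p: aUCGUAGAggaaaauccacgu
miR-1191a: cAGUCUUAcuauguagcccua
miR-703: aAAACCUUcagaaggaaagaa

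Among the 137 microRNA genes with a sequence used here, 10 seeds were shared by several profiles. The seeds of Mir191 are among them because that 1 gene has 2 profiles. Seeds shared among the repeated Mir466, Mir467 and Mir669 hairpins or the Mir684 loci were not counted, as no sequence was used for these. The next sequences show examples that join profiles from different places in the genome. The let-7 family is known from development and from the control of growth genes, miR-25 and miR-92a belong to related clusters known from proliferating cells, and miR-9 is a microRNA of neural progenitors and neurons.
let-7e-5p: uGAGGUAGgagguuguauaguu
let-7f-5p: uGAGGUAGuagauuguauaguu
let-7i-5p: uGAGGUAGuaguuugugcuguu
miR-25-3p: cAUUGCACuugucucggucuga
miR-92a-3p: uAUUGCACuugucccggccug
miR-9-5p: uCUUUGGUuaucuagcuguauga

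The members spanned nearly the whole range of the array. Mean log2 levels over 19 arrays ran from 2.66 for Mir144 to 12.6 for Mir5114 within Scd2, the stearoyl-CoA desaturase gene, with a median of 6.88 against 5.96 over all 8751 probe sets. The profiles with microRNA symbols alone sat lower, at a median of 5.91, and 27 of these 52 lay below the median of all probe sets. The profiles that also named another gene had a median of 7.66, and 15 of 83 lay below it. These levels hold 1 number per probe set and are not corrected for how well each probe binds. The medians and counts therefore compare signal between sets of probe sets, and no order of expression between genes is read from them. The SD within groups had a median of 0.13 for the members and 0.17 for all probe sets, and ran from 0.04 for Mir671 within Chpf2 to 0.43 for Mir1949. It was larger for the profiles with microRNA symbols alone (median 0.16) than for those with another gene (median 0.11).

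**Figure D1:**
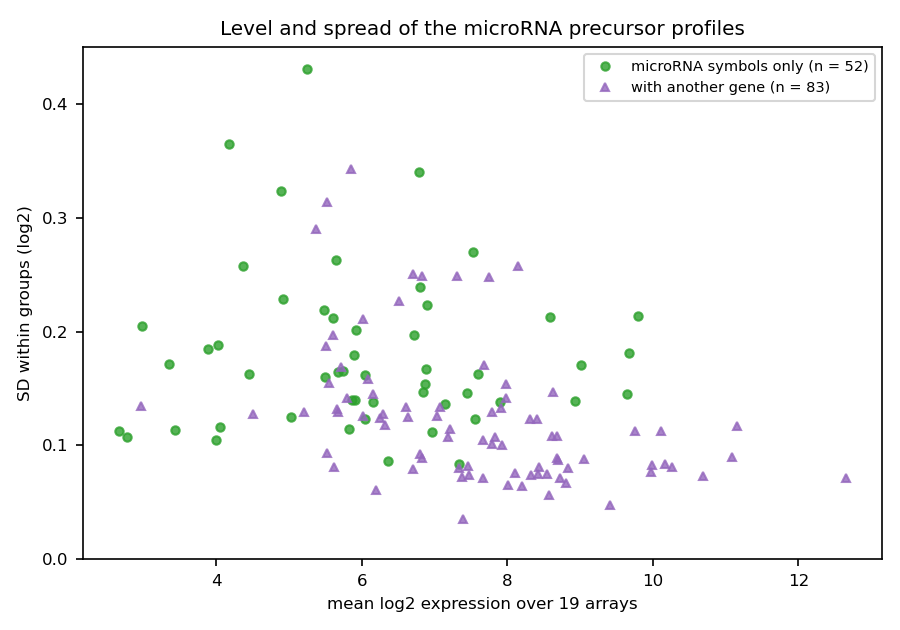
Mean log2 expression over 19 arrays (x axis) against the SD within groups in log2 units (y axis) for the 135 profiles; circles name microRNAs alone (n = 52) and triangles also name another gene (n = 83). The members with the highest level, near 12.6, name another gene, and the largest SD, 0.43, belongs to Mir1949, which names a microRNA alone.

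Averaged over both genotypes, sleep deprivation moved 2 of the 135 profiles past the threshold, an adjusted p under 0.05 in limma over all 8751 probe sets. Mir704 with its host Pdia4, a protein disulfide isomerase that folds proteins in the endoplasmic reticulum, rose, and Mir3101 with Rab4b and Mia fell. Rab4b is a small GTPase of recycling endosomes, and Mia is a gene next to it that encodes a secreted protein of cartilage and melanoma cells. Over all probe sets 0.263% passed in this comparison, 18 higher and 5 lower. The share of members with an unadjusted p under 0.05 was 8.15% (11 of 135), against 7.93% of all probe sets, and the median change was 0.01 for the members and 0.02 for all.

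Mir704 with Pdia4 read 7.78, 7.76, 7.67 and 7.82 in the wild-type controls and 8.16, 8.11, 8.22, 8.11, 7.97 and 8.06 after sleep deprivation. All 6 sleep-deprived wild-type arrays lay above the highest control. In the knockout it read 7.61, 7.54, 7.46 and 7.84 in controls and 8.19, 8.07, 8.23, 7.89 and 7.80 after sleep deprivation, and 4 of these 5 arrays lay above the highest control. The averaged change was 0.39 ± 0.06 on the log2 scale (SE, 95% interval 0.25 to 0.52, 1.31-fold, adjusted p = 0.00651 in limma). No probe set had a smaller adjusted p in this comparison. The adjustment can give several probe sets the same value, so this is not a rank by p. The change was 0.35 ± 0.09 in wild type (adjusted p = 0.268) and 0.43 ± 0.09 in the knockout (adjusted p = 0.0572). The difference between these, the interaction, was 0.08 with a 95% interval from -0.19 to 0.35. The averaged change passed the threshold in all 27 alternatives in which this probe set was tested, with adjusted p from 0.00269 to 0.0498. Here and for the other calls, the alternatives include a looser threshold of 0.1, at which a call made at 0.05 cannot be lost. The probe set names both genes, and how much of the signal comes from the hairpin and how much from Pdia4 cannot be told apart.

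The member most like Mir704 with Pdia4 from array to array, after the group means were taken off, was Mir207 with Dnaja1 (r = 0.81 over 19 arrays, a description). Dnaja1 encodes a J-domain co-chaperone of Hsp70. Next came Mir1843b with Scarna3a (r = 0.66) and Mir719 with Nupl1 (r = 0.51). Over all pairs of members the median r was 0.02 and the 95th percentile 0.54. The r of 0.81 was picked as the highest with any member, so it is not comparable to a pair taken at random. Arrays shared by 2 probe sets also share their labelling and scaling. Mir207 with Dnaja1 itself differed by 0.07 ± 0.04 with sleep deprivation (adjusted p = 0.73 in limma), which did not pass.

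Mir3101 with Rab4b and Mia read 5.90, 5.88, 5.75 and 5.63 in wild-type controls and 4.97, 5.07, 5.39, 5.16, 5.62 and 5.29 after sleep deprivation, with no overlap between these groups. In the knockout it read 5.65, 5.87, 5.64 and 5.76 in controls and 5.48, 5.67, 5.41, 5.37 and 5.11 after sleep deprivation, where the array at 5.67 reached into the control range. The averaged change was -0.43 ± 0.08 (95% interval -0.61 to -0.25; 1.35-fold lower; adjusted p = 0.027). It was -0.54 ± 0.12 in wild type (adjusted p = 0.227) and -0.32 ± 0.12 in the knockout (adjusted p = 0.3). This call was lost in 11 of 27 alternatives, among them centring on the array medians (adjusted p = 0.0815), quantile normalization (adjusted p = 0.0589) and the replicate block (adjusted p = 0.178). It was also lost without wild-type control array 1, 2 or 3, without knockout control array 2 or 4, without wild-type sleep-deprived array 4 and without knockout sleep-deprived array 3 or 4, with adjusted p from 0.0521 to 0.0844. Without wild-type sleep-deprived array 5, the change within wild type alone passed at -0.62 (adjusted p = 0.0475).

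**Figure D2:**
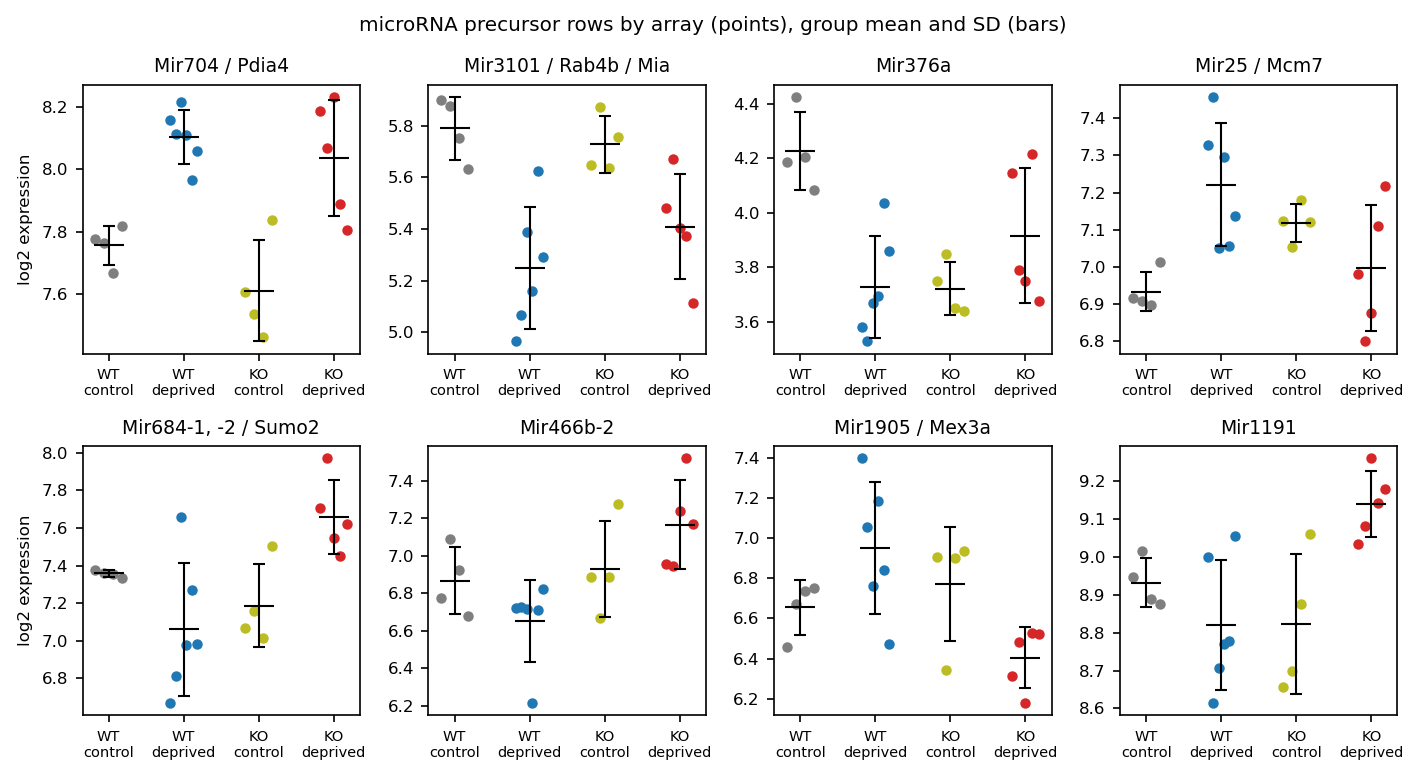
Log2 expression (y axis) of 8 members on each array, by genotype (WT, KO) and treatment; points are arrays, horizontal marks are group means and bars are the SD. Mir704 with Pdia4 is higher after deprivation in both genotypes (0.35 and 0.43), and Mir376a has its highest group mean in the wild-type controls (4.08 to 4.43), a range that 2 deprived knockout arrays, at 4.15 and 4.22, also reach.

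Next by p in the averaged sleep deprivation effect came members that did not pass. Mir124a-1 and Mir3078, which share the host transcript Mir124a-1hg, differed by 0.16 ± 0.05 (adjusted p = 0.289). Mir-124 is the classic neuronal microRNA, and its probe set was among the brighter ones at a mean of 10.2. In wild type it read 10.0 to 10.2 in controls and 10.0 to 10.3 after sleep deprivation, so the groups overlapped. Mir138-2, known from dendritic spines, lies inside Nup93 and differed by -0.25 ± 0.08 (adjusted p = 0.324). Mir29b-2 and Mir29c, a pair that rises with brain maturation, differed by 0.16 ± 0.06 (adjusted p = 0.487).

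Within wild type alone, no member and no probe set at all (0%) passed for sleep deprivation in limma, and 9 of 135 members had an unadjusted p under 0.05. That share was 6.67%, against 7.80% of all probe sets. In 5 members (3.70%) the 2 groups did not overlap, against 1.63% of all probe sets, 3 with all deprived arrays higher and 2 with all lower. The 3 were Mir704 with Pdia4, Mir25 with Mcm7 and the probe set of Mir369, Mir410 and Mir412 with their host Mirg. The 2 were Mir3101 and Mir376a.

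Mir376a is a member of the large imprinted microRNA cluster of chromosome 12 that is expressed in brain from the maternal chromosome. It read 4.19, 4.43, 4.21 and 4.08 in wild-type controls and 3.58, 3.53, 3.67, 3.69, 4.03 and 3.86 after sleep deprivation. All 6 deprived arrays lay below the lowest control. In the knockout it read 3.75, 3.85, 3.65 and 3.64 in controls and 4.15, 3.79, 3.75, 4.22 and 3.68 after sleep deprivation, with overlap. The difference with sleep deprivation was -0.50 ± 0.11 in wild type (adjusted p = 0.227) and 0.19 ± 0.12 in the knockout (adjusted p = 0.563). Its signal was low, at the 16.1st percentile of all probe sets, and it passed in none of the comparisons or alternatives run.

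Mir25 lies inside Mcm7, a subunit of the helicase that opens DNA for replication. Its probe set read 6.92, 6.91, 6.90 and 7.01 in wild-type controls and 7.33, 7.46, 7.05, 7.29, 7.06 and 7.14 after sleep deprivation. The knockout read 7.12, 7.05, 7.18 and 7.12 in controls and 6.98, 6.80, 6.87, 7.11 and 7.22 after sleep deprivation. The wild-type groups did not overlap and the knockout groups did. The wild-type difference was 0.29 ± 0.09 (adjusted p = 0.442) and the knockout one -0.12 ± 0.09 (adjusted p = 0.652).

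Within the knockout, no member passed for sleep deprivation in limma, against 0.263% of all probe sets (22 higher and 1 lower), and 17 of 135 members had an unadjusted p under 0.05. That was 12.6% of members and 11.8% of all probe sets. The smallest adjusted p was that of Mir704 with Pdia4 (adjusted p = 0.0572). It passed with array weights (adjusted p = 0.0282), with a trended and robust prior (adjusted p = 0.0326) and with the dimmest 40% of probe sets left out (adjusted p = 0.0303). It also passed without knockout control array 4 (adjusted p = 0.0359) or knockout sleep-deprived array 5 (adjusted p = 0.0312). The groups did not overlap in 3 members (2.22%), fewer than the 4.39% of all probe sets. Mir568 with Zbtb20 and Mir669i were higher on all 5 deprived arrays, and Mir5121 with Snord33 and Rpl13a was lower.

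Mir1191 read 8.66, 8.70, 8.88 and 9.06 in knockout controls and 9.03, 9.08, 9.26, 9.14 and 9.18 after sleep deprivation, so that 4 of 5 deprived arrays lay above every control. The difference was 0.32 ± 0.10 (adjusted p = 0.175), against -0.11 ± 0.09 in wild type (adjusted p = 0.782). Mir703 differed by 0.40 ± 0.14 in the knockout (adjusted p = 0.216) and by -0.08 ± 0.13 in wild type (adjusted p = 0.903). Mir568 with Zbtb20, a transcription factor of the hippocampus and of astrocytes, differed by 0.23 ± 0.08 in the knockout (adjusted p = 0.259).

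Between knockout and wild-type controls, no member and no probe set (0%) passed in limma, and 4 of 135 members had an unadjusted p under 0.05. That share was 2.96%, against 5.44% of all probe sets. The smallest adjusted p among the members was 0.792, that of Mir376a. The members leaned to lower values in the knockout: 89 were lower and 46 higher, so 34.1% were higher against 54.6% of all probe sets, and their median difference was -0.05 against 0.01. Of the profiles with microRNA symbols alone 20 of 52 were higher, and of those with another gene 26 of 83. With the arrays centred on their medians 36 members and 3722 of 8751 probe sets were higher. With quantile normalization 46 members and 4298 probe sets were higher. Leaving out any 1 array gave 45 to 54 members higher. The members share the same 8 arrays, so this count is a description and has no test.

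Differences of single members between the control groups ran from -0.50 to 0.43, and none passed. The groups did not overlap in 6 members (4.44%, against 3.68% of all probe sets). Mir324 with Dvl2, Mirlet7f-1 and Mir25 with Mcm7 were higher on all knockout arrays, and Mir376a, Mir1897 with Sox2ot and Mir425 were lower. Mir376a differed by -0.50 ± 0.13, and this comparison uses the same wild-type controls as the sleep deprivation comparison above. Mir5107 with Cd74, the invariant chain of antigen-presenting cells, differed by 0.43 ± 0.17 (adjusted p = 0.872), with 2 of the 4 knockout controls, at 8.69 and 8.68, above the wild-type range of 7.75 to 8.23. Mir592 with Grm8, a metabotropic glutamate receptor, differed by -0.29 ± 0.10 (adjusted p = 0.833), and Mir3473c by 0.33 ± 0.16 (adjusted p = 0.872).

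After sleep deprivation, 2 of 135 members were higher in the knockout than in wild type and none was lower, at an adjusted p under 0.05 in limma. They were Mir684-1 and Mir684-2 with Sumo2, and Mir466b-2. Of all probe sets 1.68% passed, 135 higher and 12 lower, which is close to the members' share of 1.48%. An unadjusted p under 0.05 was found for 23 of 135 members and 15.4% of all probe sets. The split depends on the scaling: with quantile normalization none was higher and 3 were lower (Mir682 with Rpl37a, Mir1905 with Mex3a and Mir1895), and with centring on the array medians none was higher and 1, Mir1905, was lower. The median difference of the members was 0.00 as deposited, -0.03 with quantile normalization and -0.02 with centring. The groups did not overlap in 2 members (1.48%, against 2.05% of all probe sets), Mir466b-2 higher and Mir682 with Rpl37a lower in the knockout.

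The Mir684 probe set, present in 2 identical copies, names 2 microRNA loci and Sumo2, a small ubiquitin-like modifier. Neither hairpin lies inside Sumo2. Mir684-1 lies in the pseudogene Gm13690 within Dusp19, and which of these transcripts the probe set reads was not tested. It read 7.38, 7.36, 7.36 and 7.34 in wild-type controls and 6.67, 6.81, 7.66, 6.98, 7.27 and 6.98 after sleep deprivation. The knockout read 7.07, 7.16, 7.01 and 7.50 in controls and 7.71, 7.97, 7.55, 7.45 and 7.62 after sleep deprivation. After deprivation the knockout arrays lay above 5 of the 6 wild-type arrays, and wild-type array 3, at 7.66, lay among them. The difference after deprivation was 0.60 ± 0.14 (95% interval 0.31 to 0.89; 1.51-fold; adjusted p = 0.0328). Without that array it was 0.72 (adjusted p = 0.00154), and the interaction, 0.77 ± 0.21 over all arrays (adjusted p = 0.211), was then 0.89 and passed (adjusted p = 0.026).

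The call on Mir684 was lost in 12 of 28 alternatives. These were centring (adjusted p = 0.0636), quantile normalization (adjusted p = 0.061), the replicate block (adjusted p = 0.115) and a fit of the compared groups alone (adjusted p = 0.108). The others left out 1 of knockout sleep-deprived arrays 1, 2, 3 and 5 or wild-type sleep-deprived arrays 1, 2, 4 and 6, with adjusted p from 0.0515 to 0.0883. A second probe set with the same symbols differed by 0.50 ± 0.14 (adjusted p = 0.0713) and followed the first from array to array (r = 0.97). Mir703 was next most alike (r = 0.83). Its values after deprivation were 9.55, 9.37, 10.2, 9.64, 9.83 and 9.51 in wild type, with array 3 again the highest, and 10.2, 10.1, 10.1, 9.80 and 10.1 in the knockout. The difference of Mir703 was 0.38 ± 0.12 (adjusted p = 0.127), and it passed without wild-type sleep-deprived array 3 (0.48, adjusted p = 0.014).

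Mir466b-2 belongs to a family of repeated hairpins inside Sfmbt2, a Polycomb-group gene that is imprinted in the placenta. It read 6.78, 7.09, 6.92 and 6.68 in wild-type controls and 6.72, 6.73, 6.72, 6.22, 6.71 and 6.82 after sleep deprivation. The knockout read 6.89, 6.67, 6.89 and 7.28 in controls and 6.96, 6.94, 7.24, 7.52 and 7.17 after sleep deprivation. All 5 deprived knockout arrays lay above the highest deprived wild-type array. The difference was 0.51 ± 0.13 (95% interval 0.25 to 0.78; 1.43-fold; adjusted p = 0.0459), against 0.06 ± 0.15 between the controls, and the interaction was 0.45 ± 0.20 (adjusted p = 0.385). The call was lost in 16 of 29 alternatives, with adjusted p up to 0.112. They include centring (adjusted p = 0.0636), quantile normalization (adjusted p = 0.0652), the compared groups alone (adjusted p = 0.0906) and the replicate block (adjusted p = 0.112). The other 12 left out 1 array: knockout control 1 or 3, wild-type control 1 or 3, knockout sleep-deprived 1, 3, 4 or 5, or wild-type sleep-deprived 1, 2, 4 or 5, with adjusted p from 0.0529 to 0.109.

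The member that came nearest to the threshold without passing was Mir1905 with Mex3a, an RNA-binding protein gene on the opposite strand. After deprivation it read 7.40, 7.05, 6.76, 7.18, 6.84 and 6.47 in wild type and 6.31, 6.48, 6.18, 6.53 and 6.52 in the knockout, where 2 arrays lay below every wild-type array. Its difference was -0.55 ± 0.14 (adjusted p = 0.0526), and it passed in 9 of 27 alternatives, among which the threshold of 0.1 is not counted. These were quantile normalization, centring, array weights, the trended and robust prior, the filter on dim probe sets, the replicate block, and leaving out knockout control array 2 (adjusted p = 0.033) or wild-type sleep-deprived array 3 (adjusted p = 0.033) or 6 (adjusted p = 0.0173). Mir1191 differed by 0.32 ± 0.09 (adjusted p = 0.066). Mir1895, inside Cxxc4, differed by -0.29 ± 0.08 (adjusted p = 0.088), and Mir9-1 by 0.29 ± 0.10 (adjusted p = 0.141).

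**Figure D3:**
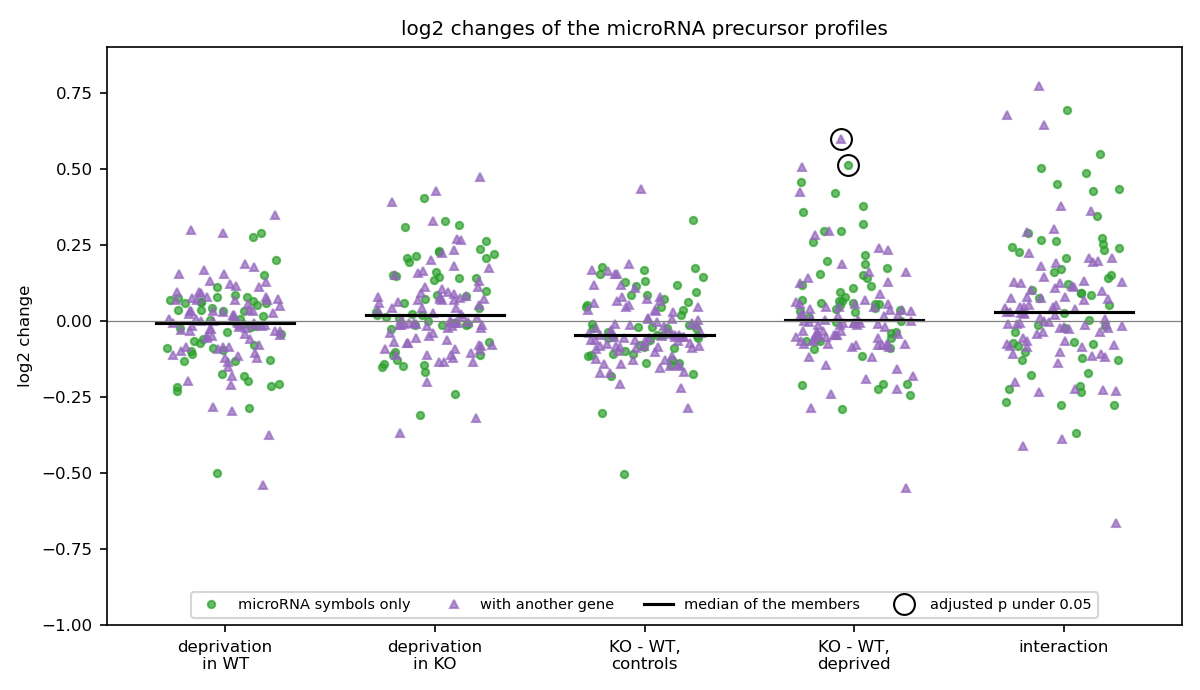
Log2 changes (y axis) of the 135 profiles in 5 comparisons (x axis); circles name microRNAs alone, triangles also name another gene, black lines are the members' medians and rings mark an adjusted p under 0.05. Rings appear only for the knockout against wild type after deprivation, at 0.60 and 0.51, and the median lies lowest, at -0.05, between the controls.

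Averaged over conditions, no member differed between genotypes in limma, against 0.0114% of all probe sets (1 probe set), and 11 members (8.15%) had an unadjusted p under 0.05, against 8.73% of all. Mir682 with Rpl37a, a ribosomal protein gene, came first with a difference of -0.15 ± 0.05 (adjusted p = 0.32 in limma). Mir682 does not lie inside Rpl37a but in the pseudogene Gm4149, and which transcript the probe set reads was not tested. Mir466b-2 differed by 0.29 ± 0.10 (adjusted p = 0.388). Mir675 with H19, the imprinted noncoding RNA it is cut from, differed by -0.17 ± 0.06 (adjusted p = 0.445). Mir1843b with Scarna3a differed by -0.18 ± 0.08 (adjusted p = 0.515).

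The interaction asks whether sleep deprivation changed a profile differently in the 2 genotypes. No member passed it in limma, against 0.0686% of all probe sets (5 higher and 1 lower), and 16 members (11.9%) had an unadjusted p under 0.05, against 11.5% of all. The smallest adjusted p was that of Mir376a, 0.69 ± 0.17 (adjusted p = 0.179), whose adjusted p ran from 0.0905 to 0.296 over 26 alternatives. Mir684 with Sumo2 followed at 0.77 ± 0.21 (adjusted p = 0.211). Mir1191 stood at 0.43 ± 0.13 (adjusted p = 0.227), and Mir25 with Mcm7 at -0.41 ± 0.13 (adjusted p = 0.227). Mir1905 with Mex3a stood at -0.66 ± 0.22 (adjusted p = 0.246). Without wild-type sleep-deprived array 3, both Mir684 probe sets passed (adjusted p = 0.026 and 0.0385).

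Hairpins less than 50 kb apart were set side by side as clusters, and 2 clusters held 8 profiles each. The first lies inside Sfmbt2 on chromosome 2, where 20 microRNA genes of the Mir466, Mir467 and Mir669 families shared 8 profiles, several of them in up to 11 identical copies. No mature sequence is shown for this family. Mir466b-2 and all 4 Mir669 profiles had differences above 0 between the genotypes after sleep deprivation, from 0.08 for Mir669k to 0.51 for Mir466b-2, and all 3 Mir467 profiles had differences below 0, from -0.07 to -0.04. None of these signs changed in the alternatives in which the profiles were tested, quantile normalization and centring among them. Of the 8, Mir466b-2 alone passed.

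Within that cluster, the Mir669a-1, Mir669a-2 and Mir669a-3 profile read 4.50, 4.86, 4.87, 4.53, 4.77 and 4.83 in deprived wild-type arrays and 5.31, 4.78, 5.50, 5.44 and 4.87 in deprived knockout arrays, with overlap. Its difference was 0.46 ± 0.13 (adjusted p = 0.0771), and it passed without knockout sleep-deprived array 2 (0.55, adjusted p = 0.0363) or 5 (0.53, adjusted p = 0.0488). The profile of Mir669a-1 with Mir669p-1 and Mir669p-2 differed by 0.42 ± 0.18 (adjusted p = 0.26), and Mir669i by 0.11 ± 0.10 (adjusted p = 0.67). With sleep deprivation the cluster's median was 0.19 in the knockout (5 higher, 3 lower) and -0.03 in wild type (4 higher, 4 lower). Of all 135 members 75 were higher in the knockout (median 0.02) and 63 in wild type (median -0.01). Leaving out any 1 array gave cluster medians of 0.12 to 0.22 in the knockout and -0.10 to 0.03 in wild type. The pairs of profiles had a median r of 0.36 (lowest -0.22, highest 0.89) across arrays. Near-identical hairpins share probes, so the profiles are not independent of each other.

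The other large cluster is the Mirg side of the imprinted region of chromosome 12, with 10 microRNA genes in 8 profiles. Its members are cut from a long maternal transcript and are known from neurons. Mir376a was the only Mir376 hairpin with a profile. Its differences of -0.50 with sleep deprivation in wild type and -0.50 between the controls compare with ranges of -0.13 to 0.11 and -0.30 to 0.07 for the other 7 profiles. Between the controls 7 of the 8 profiles were lower in the knockout (median -0.10), as were 89 of all 135 members (median -0.05). It was also 7 of 8 with quantile normalization (median -0.12) and centring (median -0.14), where 89 and 99 of the members were lower. Mir409 (-0.30 ± 0.15) came next after Mir376a. With sleep deprivation in the knockout 6 of 8 were higher (median 0.18), as were 75 of all 135 members (median 0.02). Mir299a led at 0.31 ± 0.12 (adjusted p = 0.3 in limma). None passed in any comparison. The 3 profiles that name the host Mirg itself ranged only from -0.09 to -0.03 between the controls, and the pairs of profiles had a median r of 0.06 (lowest -0.38, highest 0.72).

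**Figure D4:**
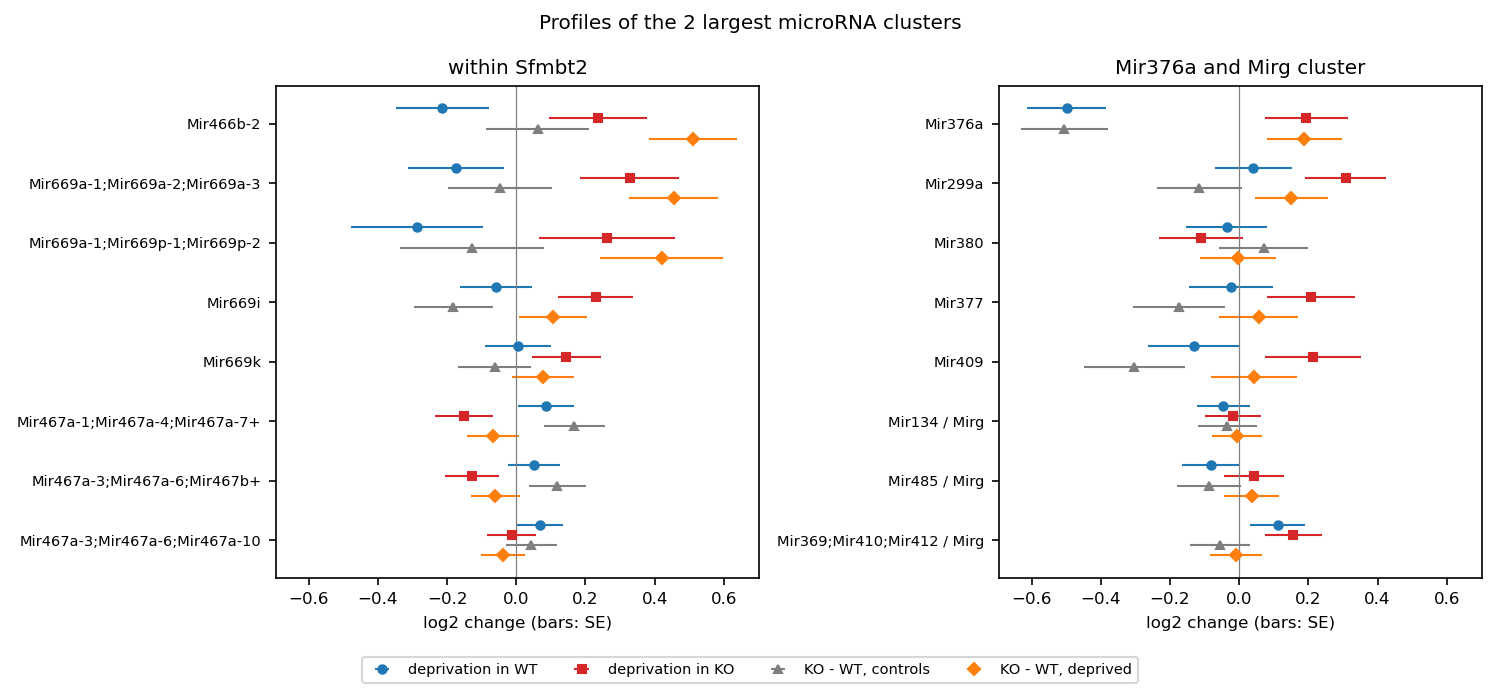
Log2 changes with their SE (x axis) for the 8 profiles within Sfmbt2 (left) and the 8 profiles of the Mir376a and Mirg cluster (right) in 4 comparisons, marked by colour and shape. On the left Mir466b-2 reaches 0.51 between the genotypes after deprivation while the Mir467 profiles stay near 0, and on the right Mir376a stands at -0.50 for deprivation in wild type and for the knockout in controls.

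The Meg3 and Rtl1 side of the same imprinted region gave 4 further profiles with 5 microRNA genes. Meg3 is the maternally expressed noncoding RNA of the region and Rtl1 its paternally expressed protein-coding neighbour. All 4 were lower in the knockout between controls, from -0.17 to -0.09, where 89 of all 135 members were lower. A probe set named Meg3 alone, which is no member, differed by -0.04. Another that is no member, naming the neighbour gene Rian, differed by -0.18 (adjusted p = 0.872 in limma). None passed in any comparison. The bright probe set of Meg3 with Mir1906-1 and Mir1906-2 differed by 0.20 with sleep deprivation in the knockout (adjusted p = 0.364) and by -0.09 in wild type (adjusted p = 0.796).

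In the smaller clusters, neighbours did not always go together. Mir25 and Mir93 share the host Mcm7, with r = 0.63 between their profiles, and Mir93 differed by 0.09 with sleep deprivation in wild type against 0.29 for Mir25. Mir191 and Mir425 lie together inside Dalrd3. Mir425 differed by -0.12 with sleep deprivation (adjusted p = 0.538), and the 2 Mir191 profiles by 0.03 and 0.05. Mir1191 and Mir3101 lie close together on chromosome 7 and had r = -0.13. Their averaged sleep deprivation effects were 0.10 and -0.43.

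Profiles with the same seed were read side by side. The let-7 profiles with the seed GAGGUAG, Mirlet7e, Mirlet7f-1 and Mirlet7i, differed by -0.10, -0.04 and -0.03 with sleep deprivation averaged over genotypes, and Mirlet7i by -0.24 ± 0.10 between genotypes after deprivation (adjusted p = 0.229). The seed AUUGCAC joins Mir25 to Mir92-1, whose probe set also names Mir17hg and Mir19b-1, a microRNA with other seeds. With sleep deprivation in wild type the Mir25 and Mir92-1 profiles differed by 0.29 and 0.13, and in the knockout by -0.12 and -0.07. Mir9-1 and Mir9-2, which give the same mature strand from separate chromosomes, differed by 0.29 and 0.11 between genotypes after deprivation. None of these profiles passed.

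Members known from other cell types showed no difference that passed. Mir451a and Mir144, which red cell precursors make from 1 transcript, differed by 0.02 and -0.05 with averaged sleep deprivation. Mir144 read near the floor of the arrays, at a mean of 2.66, where a change may not show. Its r with Mir451a was 0.13. With averaged sleep deprivation Mir223 of myeloid cells differed by 0.10, Mir155 of activated immune cells by 0.01 and Mir126a of endothelium by -0.11. The globin probe sets for Hbb-bs and Hba-a1, markers of blood, likewise passed in no comparison. The largest of their values over the 7 comparisons was the interaction of 1 Hbb-bs probe set, 0.42 (adjusted p = 0.586). In bulk tissue fewer cells of a type and less RNA per cell cannot be told apart.

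Of 31 genes that process or carry microRNAs, 3 had a probe set, and in each the symbol stood beside a microRNA inside the gene. Dgcr8 with Mir1306 differed by 0.03 with averaged sleep deprivation, Tnrc6b with Mir5113 by 0.00 and Ddx5 with Mir3064 by -0.01. Dgcr8 is the RNA-binding partner of Drosha, Ddx5 a helicase of the same complex and Tnrc6b a GW182 protein that silences messenger RNAs with Argonaute. None passed in any of the 7 comparisons. Of 14 host or neighbour genes of clusters 8 had a probe set, and none passed. Apart from that of Rian and the one named Meg3 alone, these probe sets are members themselves, so this repeats the members' result.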

How the data were processed

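Forebrain total RNA was labelled with biotin, per the labels, and the series' design text names the Affymetrix Mouse Gene 2.0 ST array. The deposited log2 values hold 1 number per probe set and array. The submitters' processing notes name RMA, oligo and limma as the authors' tools; which step each did, their versions and the build were not given in the sources used here. That design text also warns that the sample tables hold incomplete data, and 8751 probe sets were used.

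Genes were named from the platform annotation. The members and gene lists were chosen with earlier results of these data known. All 167 microRNA symbols were found in the RefSeq gene table of GRCm38.p6, which was used for neighbours and hosts.

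The 4 group means were fitted on 19 arrays without covariates in limma 3.58.1 (R 4.3.3). Moderated tests of 7 comparisons had their p-values adjusted over 8751 probe sets (Benjamini-Hochberg; threshold 0.05); ± is the SE of a difference unless SD is written. Comparisons that share a group share its arrays. Deviations from the group means were used for correlations. Profiles named in the text were those past the threshold in any comparison and the 5 members with the smallest p in each. All profiles of the Mir376 and Mir466, Mir467 and Mir669 families were named too. Other members were named in counts, correlations, clusters, seeds and cell types after their values were seen. The deviations of same-numbered arrays of different groups had correlations of -0.221 to 0.0783 over 25 pairs. Differently numbered arrays were not compared in the same way, so these correlations cannot exclude a shared factor. The numbers were not taken as pairs, and a fit with the replicate number as a block was run as an alternative. Scripts were tested on simulated data. Plots were drawn with matplotlib 3.10.9.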

Additional observations from a re-analysis of the deposited data

Results flagged for a closer look

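Of 108 groups of arrays tested, 4 for each of 27 named members, 7 held an array that lay far from the rest of its group by Dixon's criterion at 95%. Chance gives about 1 in 20 such groups. The wild-type sleep-deprived array 4 was lowest for Mir124a-1 and Mir3078 with Mir124a-1hg (10.04) and for Mir466b-2 (6.217). Without that array the difference of Mir466b-2 between genotypes after sleep deprivation was 0.42 (adjusted p = 0.0874 in limma). The other values were 4.412 for Mir669a-1 with Mir669p-1 and Mir669p-2 on knockout control array 1, 6.344 for Mir1905 with Mex3a on knockout control array 2 and 9.797 for Mir703 on knockout sleep-deprived array 4. Mir592 with Grm8 was lowest on knockout sleep-deprived array 5 (5.534), and Mir25 with Mcm7 was highest on wild-type control array 4 (7.012).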

How the results depend on the processing

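Counts of members called are given against those in the report. For sleep deprivation averaged over genotypes, 2 members became 1 with centring and 1 with quantile normalization, and 1 to 2 when any 1 array was left out, while with only probe sets of 1 symbol it was 0 because neither called probe set was tested. For sleep deprivation in the knockout, 0 became 1 (Mir704) with array weights, with the dimmest 40% of probe sets left out, with a trended and robust prior and at a threshold of 0.1, and was 0 to 1 when 1 array was left out. In wild type it was 0 to 1. For the knockout against wild type after sleep deprivation, 2 became 4 with array weights, 4 with the trended and robust prior, 5 without the dimmest probe sets (114 members tested), 7 at a threshold of 0.1, 1 with centring, 3 with quantile normalization and 0 when only the compared groups were fitted. It ran from 0 (without knockout sleep-deprived array 1 or 3 or wild-type sleep-deprived array 1, 2 or 4) to 6 (without wild-type sleep-deprived array 3). For the interaction, leaving out 1 array gave 0 to 2. With the replicate number as a block, the averaged sleep deprivation count was 1 and the genotype count after deprivation was 1, Mir1905 in place of Mir684 and Mir466b-2. Knockout against wild type in controls and averaged over conditions stayed at 0 throughout. Of 111 alternatives run for the 4 member calls, 39 lost the call and none turned its direction. For each call they include the threshold of 0.1, at which it could not be lost. Beyond the settings' own construction, the cause was not tested.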
